A study of Mus musculus with 14 samples.

Results

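Messenger RNA for the presynaptic machinery of neurotransmitter release was examined through 38 genes listed by symbol, a list made with earlier results of these data known. They were 13 C2-domain proteins, most of them calcium sensors (the synaptotagmins Syt1, Syt2, Syt4, Syt5, Syt6, Syt7, Syt9, Syt10, Syt11, Syt12 and Syt17, with Doc2b and Rph3a), 6 SNARE proteins and complexins (Snap25, Stx1a, Vamp1, Vamp2, Cplx1 and Cplx2), 11 proteins of the vesicle surface and membrane (Syn1, Syn2, Syn3, Syp, Sv2a, Sv2b, Sv2c, Rab3a, Rab3b, Rab3c and Slc17a7) and 8 proteins of the active zone (Rims1, Rims2, Rims3, Unc13a, Unc13b, Unc13c, Bsn and Pclo). All 38 were found among the 36118 genes of the count table, and all 38 passed the filter on low counts with 16637 genes in all.

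Hippocampi were taken on postnatal day 15 from newborn mice that had spent days 1 to 14 in room air (RA) or in hyperoxia at 85% O2, and RNA was sequenced after polyA selection, 1 library per mouse. There were 4 wild-type mice in room air (WT-RA), 4 wild-type mice in hyperoxia (WT-O2), 3 Gsdmd knockout mice in room air (KO-RA) and 3 Gsdmd knockout mice in hyperoxia (KO-O2), all labelled C57/BL6. Gsdmd encodes gasdermin D, a pore-forming protein of inflammatory cell death. The knockout is germline and global, made with CRISPR/Cas9 as a small deletion in one exon, the KO mice were homozygous, and their WT littermates served as controls. The study asked how the loss of Gsdmd changes the response of the hippocampal transcriptome to hyperoxia.

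The library totals lay between 27272270 and 28257496 estimated counts. Gsdmd itself had 41 to 63 counts in WT mice and 22 to 42 in KO mice, which overlap, and a gene-level sum cannot tell the deleted allele from the intact one. One WT mouse, GSD408, has hyperoxia in its title and room air in its treatment field, and it was used as WT-O2. Mouse numbers run from GSD398 to GSD408 in WT and from GSD489 to GSD496 in KO mice, so genotype and number series cannot be told apart. The hippocampal marker list (12 genes, among them Prox1, Neurod6 and Zbtb20) summed to between 682 and 1732 CPM (counts scaled to library size with edgeR's TMM factors) and no list had a marker at 0 throughout a group. Marker lists of other regions and cell types moved with genotype as well. The striatal list (12 genes, among them Drd1 and Adora2a) summed to between 432 and 992 CPM in WT mice and to between 166 and 279 CPM in KO mice. The thalamic list (14 genes) ranged from 183 to 994 CPM in WT mice and from 180 to 224 CPM in KO mice, and the oligodendrocyte list from 5239 to 19870 CPM in WT mice and from 3657 to 6208 CPM in KO mice. The hippocampal list was higher in KO mice, at 1412 to 1732 CPM against 682 to 1093 CPM in WT mice, whereas the pan-neuronal list overlapped between genotypes at 5777 to 6270 and 5425 to 6454 CPM. The astrocyte list was higher in KO mice (4514 to 5262 against 3836 to 4424 CPM). Of 12 cortical and subplate markers 8 were called lower in room air and 4 in hyperoxia, and of 10 medial habenula and cholinergic markers 4 and 3 (median log2 fold changes -1.13 and -1.50). Of 12 GABAergic interneuron markers 6 were called in room air (5 lower) and 3 in hyperoxia (2 lower). The interneuron sums overlapped between genotypes, as did the medial habenula sums and the cortical and subplate sums in room air. The part of these lists in the differences between genotypes given for the release genes was not tested. The choroid plexus list (8 genes) summed to 41.0 CPM in the KO-RA mouse GSD489 and to 114 CPM in the KO-O2 mouse GSD494, against 938 to 3441 CPM in the other 12 mice. In whole tissue, fewer cells of a type and less RNA per cell cannot be told apart.

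Synaptic vesicles are filled with transmitter, docked at the active zone and primed by RIM and Munc13 proteins. They fuse when a synaptotagmin binds calcium and a SNARE complex of Snap25, syntaxin and a vesicle-bound synaptobrevin, controlled by complexin, pulls the membranes together. Most of these proteins come in families whose members are used in different proportions by different neurons, and in hippocampal excitatory neurons the usual set includes Syt1, Vamp2, Rims1, Unc13a and the vesicular glutamate transporter Slc17a7.

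Per kilobase of transcript, Vamp2, Slc17a7, Snap25 and Syp stood highest. On this scale, CPM divided by the length of the longest coding transcript, the WT-RA means were 529 ± 16.3 for Vamp2, 529 ± 77.7 for Slc17a7, 518 ± 15.9 for Snap25 and 507 ± 15.3 for Syp (SD, n = 4). These 4 lay within each other's spread. Rab3a followed at 356 ± 15.4 and Syt1 at 319 ± 21.1. Rab3a stood below Syp by more than their spread, whereas Rab3a and Syt1 just met. Syn1 (290 ± 20.6), Cplx1 (272 ± 35.3) and Cplx2 (272 ± 29.8) came next and overlapped. At the other end were Syt10 (4.73 ± 0.982), Syt2 (4.02 ± 0.392), Syn3 (3.83 ± 0.762) and Unc13b (2.80 ± 0.667). Neighbours in this order overlapped within their SD, but the mean ± SD of Unc13b did not reach those of Syt2 and Syt10. Before division by its 14754 bases, Unc13b averaged 41.25 ± 9.84 CPM in WT-RA, above Syt2 at 27.68 ± 2.69 CPM. The levels of most release genes were steady between mice of a group. The median coefficient of variation over the 38 genes was 11.2% for WT-RA mice, 7.54% for WT-O2, 7.29% for KO-RA and 5.04% for KO-O2, and the least steady value was Syt9 in WT-RA at 58.5%.

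**Figure D1:**
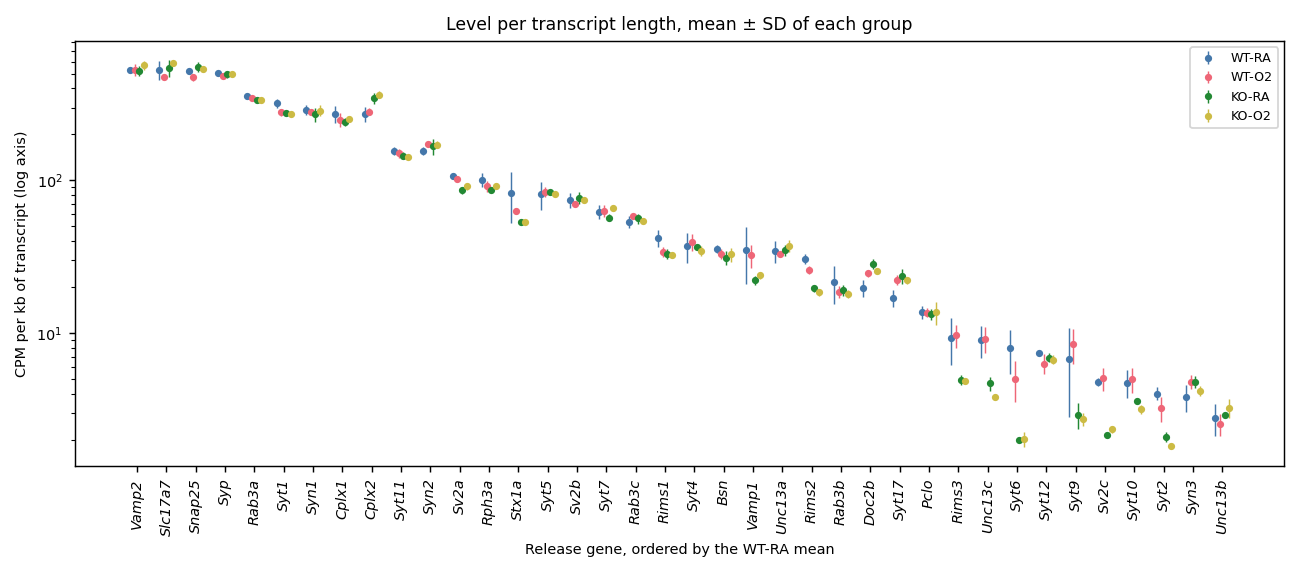
Level of each release gene in CPM per kilobase of transcript on a log axis, as the mean of each group with its SD (n = 4 for WT-RA and WT-O2, n = 3 for KO-RA and KO-O2), ordered by the WT-RA mean. On this axis the groups lie close for the abundant genes from Vamp2 (529 in WT-RA) to Syn1, although some do not overlap, such as Slc17a7 in hyperoxia, and they lie farther apart by genotype for several low genes such as Syt6, Sv2c and Unc13c.

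Promoters are shown for 4 of the 8 release genes called in both genotype comparisons. They are those of Sv2c, Unc13c and Rims3, which were lower in KO mice in both exposures, and of Cplx2, the one release gene called higher in both. Each run is 300 bases from RefSeq (GRCm38.p6), 250 before and 50 after the annotated start of transcription, 5′ to 3′ on the strand of the gene. Capitals mark GGGCGG or its reverse complement CCGCCC, the letters of a GC box. They are at chr13:96132528-96132827 on the minus strand for Sv2c, chr9:73968988-73969287 on the minus strand for Unc13c, chr4:120854549-120854848 on the plus strand for Rims3 and chr13:54302306-54302605 on the plus strand for Cplx2.
Sv2c: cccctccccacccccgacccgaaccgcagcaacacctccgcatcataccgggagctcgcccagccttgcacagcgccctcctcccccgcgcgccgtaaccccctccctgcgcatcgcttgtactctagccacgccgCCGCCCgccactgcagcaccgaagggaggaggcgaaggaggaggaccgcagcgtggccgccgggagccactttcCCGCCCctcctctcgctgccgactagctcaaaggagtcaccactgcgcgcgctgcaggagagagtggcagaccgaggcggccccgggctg
Unc13c: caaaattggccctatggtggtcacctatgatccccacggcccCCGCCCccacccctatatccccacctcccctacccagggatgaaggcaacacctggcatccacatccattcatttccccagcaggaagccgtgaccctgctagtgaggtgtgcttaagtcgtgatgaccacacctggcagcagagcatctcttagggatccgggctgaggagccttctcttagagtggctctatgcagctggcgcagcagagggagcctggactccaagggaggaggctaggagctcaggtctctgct
Rims3: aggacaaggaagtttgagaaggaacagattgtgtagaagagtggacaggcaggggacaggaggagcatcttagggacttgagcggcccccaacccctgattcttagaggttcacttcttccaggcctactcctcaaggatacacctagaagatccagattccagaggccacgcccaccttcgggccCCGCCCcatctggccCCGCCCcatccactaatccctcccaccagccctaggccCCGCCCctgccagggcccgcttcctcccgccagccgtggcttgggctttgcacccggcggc
Cplx2: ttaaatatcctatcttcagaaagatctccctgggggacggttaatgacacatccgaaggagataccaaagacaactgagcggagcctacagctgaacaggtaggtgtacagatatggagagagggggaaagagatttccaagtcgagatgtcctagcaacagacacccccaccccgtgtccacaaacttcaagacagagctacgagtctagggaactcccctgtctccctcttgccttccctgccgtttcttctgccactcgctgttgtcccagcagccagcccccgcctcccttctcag
The Sv2c window held the letters at 2 places, the Unc13c window at 1 and the Rims3 window at 3, and the Cplx2 window had no match. The GC content was 71.7%, 59.3%, 62.3% and 53.3% in the same order. Promoters of 28 of the 38 genes were matched in the RefSeq table (39 windows in all), with a median GC content of 62.0% against 52.7% over all 32851 windows. GGGCGG, searched on both strands, was in 28 of the 39 windows, against 35.7% of all windows. TATAAA was in 3 of them (13.6% of all), the CRE letters TGACGTCA in that of Syn1 (1.79% of all) and TTCAGCACC, one end of the REST motif, in those of Syn1 and Unc13a (0.371% of all). Both strands were searched for each. GGGCGG was also found for release genes not called in any comparison, such as Syt1, Syp, Rab3a and Unc13a. These matches are a description of the letters in the windows, and a link with the direction of a call was not tested.

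In room air, 13 of the 38 release genes differed between KO-RA and WT-RA mice. Of these, 10 were lower in KO-RA (Syt2, Syt6, Syt9, Stx1a, Vamp1, Sv2c, Rims1, Rims2, Rims3 and Unc13c) and 3 were higher (Syt17, Doc2b and Cplx2). To be called, a gene needed a log2 fold change of 0.32 or more in size (the study's fold minimum), p below 0.05 and a Benjamini-Hochberg adjusted p (q) below 0.1 over the 16637 genes in edgeR's quasi-likelihood test. The share called was 34.2% of the release genes against 10.4% of all genes tested. Lower calls made up 26.3% of the release genes against 6.7% of all genes, and higher calls 7.89% against 3.75%. Between KO-O2 and WT-O2 mice, 9 were called, 23.7% against 6.86% of all genes, with 8 lower (Syt2, Syt6, Syt9, Syt10, Sv2c, Rims2, Rims3 and Unc13c) and 1 higher (Cplx2). Lower calls came to 21.1% against 4.35% of all genes and the higher call to 2.63% against 2.51%. At an unadjusted p below 0.05, 19 passed in room air (50% against 23.5% of all genes) and 13 in hyperoxia (34.2% against 18.7%). The median log2 fold change over the 38 was -0.11 in room air and -0.04 in hyperoxia, against -0.01 over all genes in both. The 2 comparisons share no mice, but they come from a single fit to all 14 libraries with a shared estimate of spread. In both, 8 genes were called (Syt2, Syt6, Syt9, Cplx2, Sv2c, Rims2, Rims3 and Unc13c), in the same direction in each. Without GSD489, the KO-RA mouse low in choroid plexus markers, 9 of the 13 calls in room air remained and those of Syt9, Stx1a, Vamp1 and Cplx2 (log2 fold change 0.28) were lost, and without GSD494 all 9 in hyperoxia remained.

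Calls were more frequent among the rarer release genes than among the abundant ones. Of the 13 release genes with a mean below 100 CPM over all mice, 9 were called in at least 1 comparison between genotypes, against 12.7% of all tested genes below that level, and of the 25 at 100 CPM or more, 5 were, against 13.4% of all tested genes. Within families, Cplx2 but not Cplx1 was called, as were all 3 RIMs among the 38, and none of the synapsin or Rab3 genes among the 38 was. The groups did not overlap for 14 of the 38 genes in room air, 36.8% against 19.6% of all genes, and for 14 in hyperoxia, 36.8% against 19%.

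**Figure D2:**
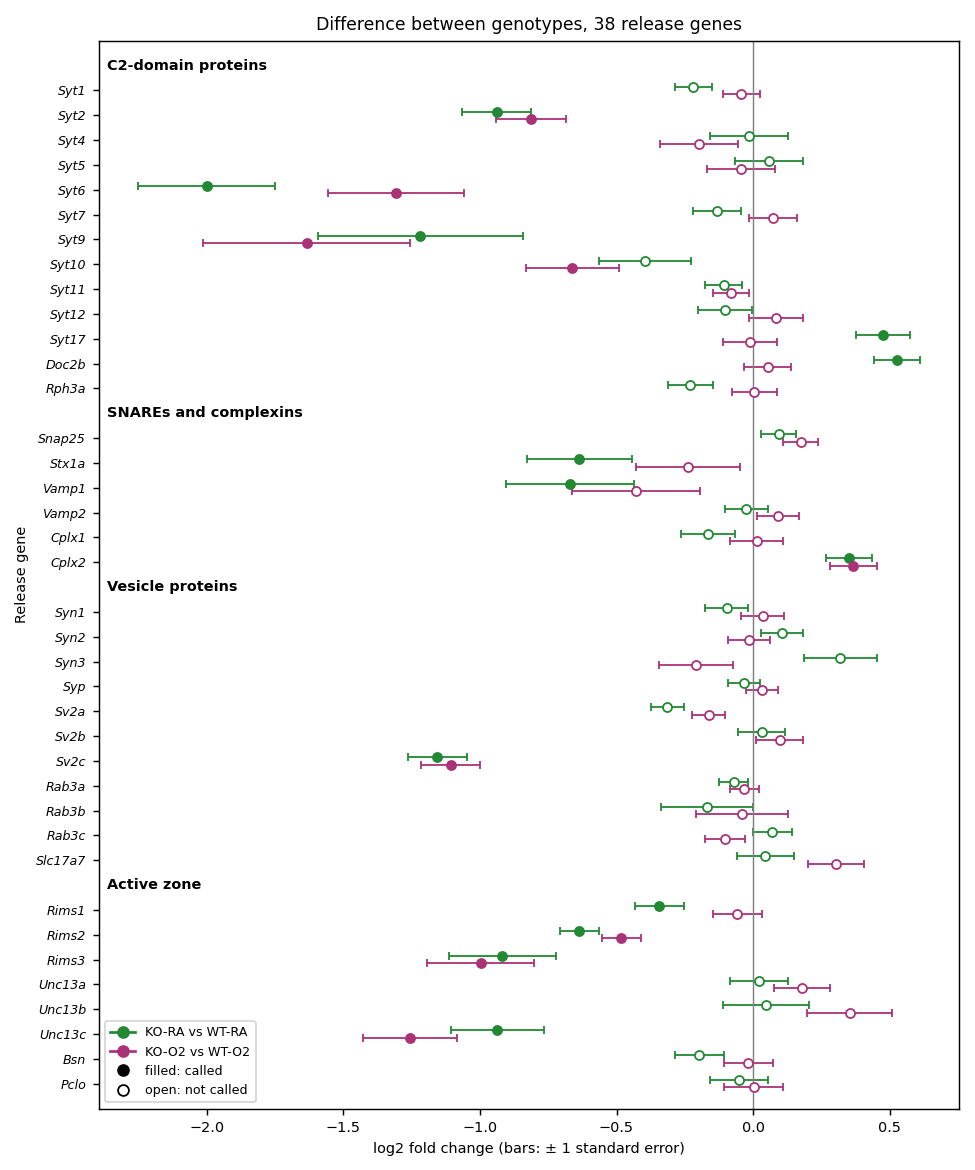
Log2 fold change of each release gene between genotypes, KO-RA over WT-RA and KO-O2 over WT-O2, with bars of 1 standard error and filled points for called genes. The filled points on the left are mostly shared by both exposures, with Syt6 lowest in room air at -2.0, and Cplx2 is filled on the right in both.

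Among the C2-domain proteins, 3 synaptotagmins were lower in KO mice in both exposures and 1 in hyperoxia. Syt6, a synaptotagmin whose role at synapses is less well defined, was at 22.0, 37.1, 49.2 and 32.6 CPM in the 4 WT-RA mice, in the order GSD398, GSD399, GSD400 and GSD401, and at 8.73, 8.68 and 9.0 CPM in the 3 KO-RA mice, in the order GSD489, GSD490 and GSD496. It was at 18.7, 31.4, 16.0 and 23.1 CPM in the 4 WT-O2 mice, in the order GSD404, GSD405, GSD406 and GSD408, and at 8.16, 8.73 and 10.1 CPM in the 3 KO-O2 mice, in the order GSD491, GSD494 and GSD495. Every KO mouse was below every WT mouse, and the KO mice lay close together while the WT mice were spread. The log2 fold change was -2.0 ± 0.25 (SE) in room air (edgeR q = 0.000293) and -1.31 ± 0.25 in hyperoxia (q = 0.00625). The same mouse order is used for the values that follow.

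Syt2, a fast calcium sensor for synchronous release that is typical of brainstem and inhibitory neurons, was at 30.7, 27.7, 24.1 and 28.2 CPM in WT-RA and at 13.4, 14.3 and 15.6 CPM in KO-RA. In hyperoxia it was at 17.6, 27.3, 20.2 and 23.8 CPM in WT-O2 and at 12.7, 12.6 and 12.7 CPM in KO-O2. The genotypes did not overlap in either exposure, and the log2 fold changes were -0.94 ± 0.13 (edgeR q = 0.000488) and -0.81 ± 0.13 (q = 0.00226). Syt9, another sensor that can drive fast release, varied the most between WT-RA mice. Its WT-RA values were 45.1, 29.1, 9.58 and 19.7 CPM, and the KO-RA values were 8.69, 12.9 and 11.7 CPM, so that the WT-RA mouse GSD400 lay within the KO-RA range. In hyperoxia the WT-O2 values of 21.0, 33.6, 33.4 and 41.3 CPM were all above the KO-O2 values of 11.3, 9.32 and 10.6 CPM. Its log2 fold change was -1.22 ± 0.38 in room air (edgeR q = 0.0534) and -1.63 ± 0.38 in hyperoxia (q = 0.0199). The call in room air was lost without GSD398 (log2 fold change -0.80), GSD399, GSD489 or GSD496.

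Syt10, known as a calcium sensor for growth factor secretion in olfactory bulb neurons, was called in hyperoxia. It was at 8.68, 7.17, 11.2 and 9.99 CPM in WT-O2 and at 5.73, 6.31 and 5.51 CPM in KO-O2, without overlap (log2 fold change -0.66 ± 0.17, edgeR q = 0.0334), and the call was lost without GSD406, GSD491 or GSD495. In room air the WT-RA mouse GSD398 at 6.26 CPM was below all 3 KO-RA mice at 6.40 to 6.93 CPM, and the log2 fold change of -0.40 ± 0.17 did not pass (q = 0.164). Whether the 2 exposures differ for Syt10 is given by the interaction, which was not called for any release gene.

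In room air, Syt17 and Doc2b were higher in KO mice. Syt17, an atypical synaptotagmin that lacks a transmembrane segment, was at 47.2, 53.9, 42.4 and 56.9 CPM in WT-RA and at 78.6, 65.0 and 65.6 CPM in KO-RA. Doc2b, a high-affinity calcium sensor linked to spontaneous release, was at 84.7, 95.0, 71.8 and 93.0 CPM in WT-RA and at 135, 121 and 117 CPM in KO-RA. Neither gene overlapped between these groups, with log2 fold changes of 0.48 ± 0.10 for Syt17 (edgeR q = 0.00719) and 0.53 ± 0.09 for Doc2b (q = 0.00156). Under hyperoxia the genotypes overlapped for both, at 60.2, 65.1, 72.6 and 66.0 CPM against 64.5, 69.3 and 62.5 CPM for Syt17 and at 103, 111, 114 and 101 CPM against 108, 113 and 113 CPM for Doc2b. The lowest group for both genes was thus WT-RA.

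The abundant sensors moved little. Syt1, the main fast sensor of forebrain excitatory synapses, averaged 1540 ± 102 CPM in WT-RA and 1323 ± 58.6 CPM in KO-RA, a log2 fold change of -0.22 ± 0.07 that passed the q threshold (edgeR q = 0.0503) below the fold minimum, and -0.04 ± 0.07 in hyperoxia. Rph3a, a Rab3 effector, likewise passed on q alone in room air (-0.23 ± 0.08, q = 0.095). For the sensor of asynchronous release Syt7, for Syt4, Syt11 and Syt12, which bind little or no calcium, and for Syt5, the log2 fold changes between genotypes lay between -0.20 and 0.09 in both exposures and none passed. Within a library, the counts of the rarer sensors can be set against those of Syt1, a measure in which library scaling cancels. Syt2 came to between 1.28% and 2.18% of the Syt1 counts in WT mice and to between 0.945% and 1.21% in KO mice. Syt6 came to 1.18% to 2.93% and 0.628% to 0.755%, so both shares were lower in every KO mouse than in any WT mouse. Syt9 came to 0.57% to 3.09% in WT and 0.625% to 1.0% in KO mice, which overlap.

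Of the SNARE proteins and complexins, Cplx2 was higher in KO mice in both exposures. Cplx2, a complexin that clamps and activates SNARE complexes and that is abundant in hippocampal neurons, was at 1192, 1297, 1542 and 1324 CPM in WT-RA and at 1871, 1635 and 1615 CPM in KO-RA. In hyperoxia it was at 1477, 1307, 1430 and 1352 CPM in WT-O2 and at 1736, 1750 and 1898 CPM in KO-O2. All KO mice were above all WT mice of the same exposure, and the log2 fold changes were 0.35 ± 0.09 (edgeR q = 0.0178) and 0.37 ± 0.09 (q = 0.0204). The call was lost in room air without GSD398 or GSD489 and in hyperoxia without GSD495. Cplx1, its close relative, was at 595 ± 77.3 CPM in WT-RA and 531 ± 33.1 CPM in KO-RA and was not called. The Cplx1 counts were 35.2% to 59.5% of the Cplx2 counts in WT mice and 29.9% to 32.2% in KO mice.

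Stx1a and Vamp1 were called lower in room air, and both rested on widely spread WT-RA mice. Stx1a, a plasma membrane SNARE, was at 108, 165, 266 and 178 CPM in WT-RA and at 117, 117 and 112 CPM in KO-RA, so that the lowest WT-RA mouse, GSD398, was below all 3 KO-RA mice. Its log2 fold change was -0.64 ± 0.19 (edgeR q = 0.049), and -0.38 without the highest WT-RA mouse, GSD400, still called. Vamp1, the synaptobrevin typical of spinal, brainstem and fast-firing neurons, was at 162, 94.9, 59.1 and 109 CPM in WT-RA and at 69.8, 61.9 and 68.5 CPM in KO-RA. Here the lowest WT-RA mouse was GSD400, below all 3 KO-RA mice, and the log2 fold change was -0.67 ± 0.24 (q = 0.0884). Without any one KO-RA mouse the Stx1a call was lost, and the Vamp1 call was lost in 12 of the 14 fits that left out 1 mouse, with a log2 fold change of -0.38 without GSD398. In hyperoxia the log2 fold changes were -0.24 ± 0.19 for Stx1a (q = 0.57) and -0.43 ± 0.23 for Vamp1 (q = 0.35).

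Snap25 and Vamp2, the SNAREs used throughout the forebrain, were not called. Snap25 averaged 1097 ± 33.5 CPM (WT-RA), 1002 ± 55.8 CPM (WT-O2), 1170 ± 82.6 CPM (KO-RA) and 1130 ± 9.03 CPM (KO-O2). Vamp2 averaged 1168 ± 36.0, 1170 ± 101, 1148 ± 86.9 and 1246 ± 83.7 CPM in the same order. For Snap25 the KO-O2 mice were all above the WT-O2 mice (log2 fold change 0.17 ± 0.06, edgeR q = 0.133), which did not pass. Vamp1 counts were 4.87% to 14.3% of Vamp2 counts in WT mice and 5.6% to 6.13% in KO mice, a narrow band inside the WT range.

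**Figure D3:**
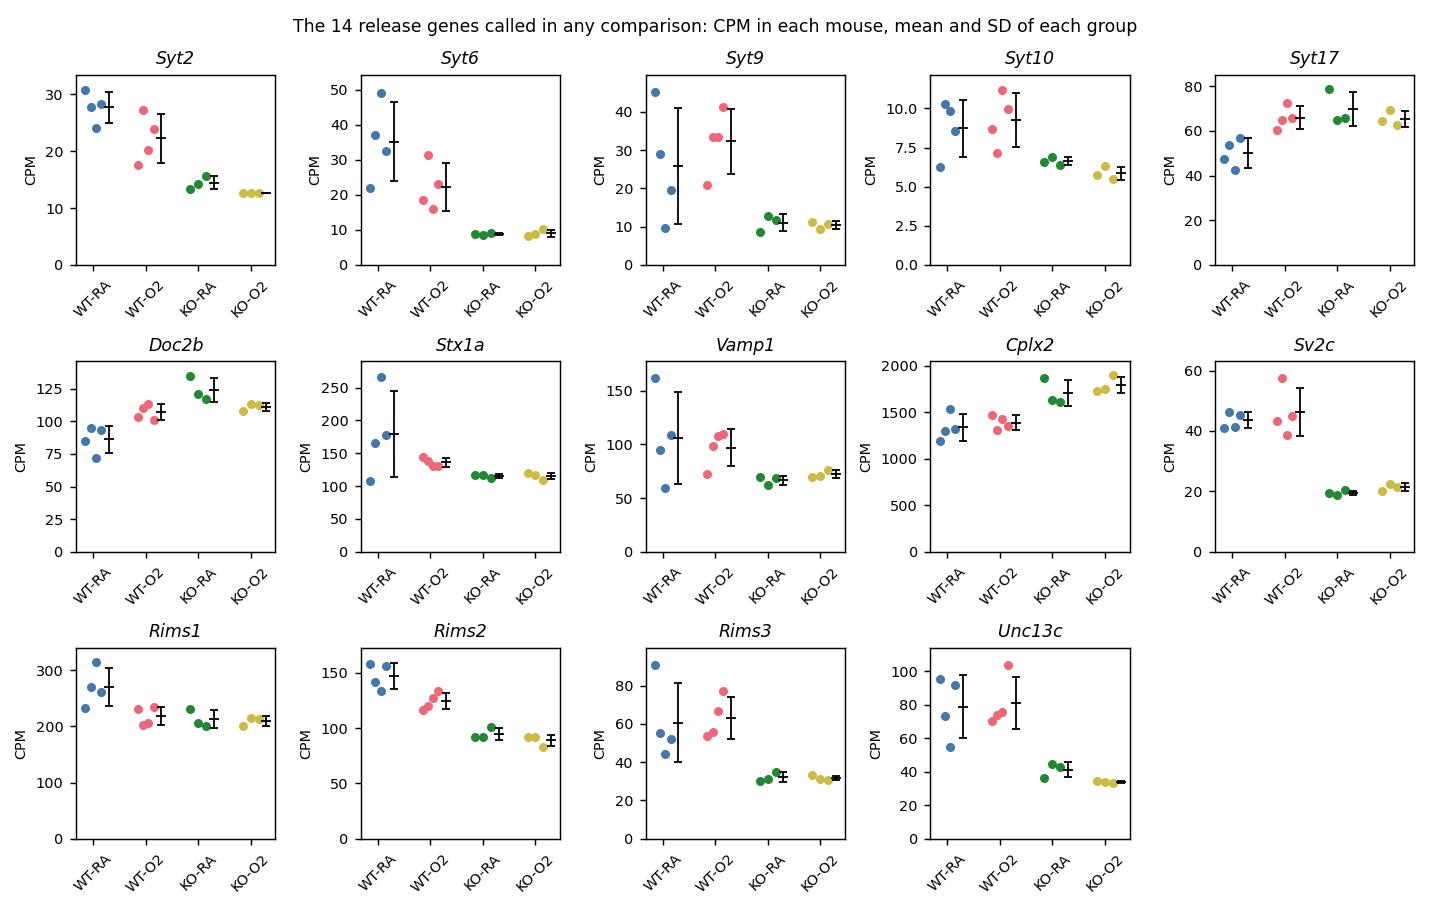
CPM of the 14 release genes called in any comparison, 1 point per mouse, with the mean and SD of each group beside the points (n = 4, 4, 3 and 3) and every axis starting at 0. The KO mice form a tight low cluster for Syt6 (8.16 to 10.1 CPM) and Sv2c, while single WT-RA mice reach the KO range for Syt9, Stx1a and Vamp1.

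Among the vesicle proteins, Sv2c stood apart from the rest of its group. Sv2c, the vesicle glycoprotein of the SV2 family best known from the basal ganglia, was at 41.0, 46.3, 41.5 and 45.4 CPM in WT-RA and at 19.3, 18.9 and 20.4 CPM in KO-RA. In hyperoxia it was at 43.5, 57.5, 38.8 and 45.1 CPM in WT-O2 and at 20.2, 22.6 and 21.6 CPM in KO-O2. The KO mice were at less than the lowest WT value by a wide margin in both exposures, with log2 fold changes of -1.16 ± 0.11 (edgeR q = 4.8e-05) and -1.11 ± 0.11 (q = 9e-05). These were the smallest q values of any release gene in either comparison. Sv2c counts were 8.36% to 13.1% of Sv2a counts in WT mice and 4.85% to 5.6% in KO mice.

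Sv2a, the widely expressed SV2 protein that binds the antiepileptic drug levetiracetam, was lower by less. It averaged 464 ± 20.8 CPM in WT-RA and 373 ± 21.6 CPM in KO-RA without overlap, and its log2 fold change of -0.31 ± 0.06 (edgeR q = 0.00464) was just short of the fold minimum. In hyperoxia the change was -0.16 ± 0.06 (q = 0.147). Sv2b, the third SV2 protein, averaged 414 ± 46.7 CPM in WT-RA and 423 ± 38.6 CPM in KO-RA. Syp, a membrane protein that binds Vamp2, and the synapsins Syn1 and Syn2, which hold vesicles in clusters, had log2 fold changes between -0.10 and 0.10 between genotypes. Syn3 was at 15.4 ± 3.05 CPM in WT-RA and 19.2 ± 1.73 CPM in KO-RA, with a log2 fold change of 0.32 ± 0.13 that did not pass (q = 0.16). The GTPases Rab3a, Rab3b and Rab3c, which bring vesicles to the release site, lay between -0.17 and 0.07 in both exposures and none was called. The glutamate transporter Slc17a7 was at 1277 to 1830 CPM in WT-RA and 1441 to 1814 CPM in KO-RA, and in hyperoxia the KO-O2 mice at 1671 to 1745 CPM were all above the WT-O2 mice at 1300 to 1437 CPM (log2 fold change 0.30 ± 0.10, q = 0.107), which did not pass.

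At the active zone, Rims2, Rims3 and Unc13c were lower in KO mice in both exposures. Rims2, a scaffold that tethers calcium channels and recruits priming factors, was at 158, 142, 134 and 156 CPM in WT-RA and at 91.6, 92.1 and 101 CPM in KO-RA. In hyperoxia it was at 117, 120, 127 and 133 CPM in WT-O2 and at 92.1, 91.6 and 83.3 CPM in KO-O2. No KO mouse reached a WT mouse, and the log2 fold changes were -0.64 ± 0.07 (edgeR q = 0.000161) and -0.48 ± 0.07 (q = 0.00156). Rims3, a short RIM with a single C2 domain, was at 90.8, 55.4, 44.1 and 52.3 CPM in WT-RA and at 30.4, 31.0 and 34.9 CPM in KO-RA. The WT-O2 values were 53.4, 55.6, 66.5 and 77.1 CPM and the KO-O2 values 33.0, 31.0 and 30.8 CPM. It did not overlap between genotypes, and its log2 fold changes were -0.92 ± 0.20 (q = 0.0084) and -1.0 ± 0.20 (q = 0.0075). Its counts were 14.1% to 39.0% of those of Rims1 in WT mice and 13.2% to 17.4% in KO mice, which overlap.

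Unc13c encodes a Munc13 priming protein best known from cerebellar granule cells. It was at 95.3, 73.4, 54.8 and 91.9 CPM in WT-RA and at 36.0, 44.6 and 43.0 CPM in KO-RA, and at 70.2, 73.6, 75.9 and 103.7 CPM in WT-O2 and 34.6, 34.0 and 33.0 CPM in KO-O2. Each KO value was below each WT value, and the log2 fold changes were -0.94 ± 0.17 (edgeR q = 0.00337) and -1.26 ± 0.17 (q = 0.00104). Its counts were 12.7% to 30.2% of those of Unc13a in WT mice and 8.01% to 13.1% in KO mice, with the WT-RA minimum inside the KO range. Unc13a, the main Munc13 of the forebrain, averaged 352 ± 57.0 CPM in WT-RA and 358 ± 28.9 CPM in KO-RA. Unc13b, its ubiquitous relative, was at 37.6 ± 6.20 CPM in WT-O2 and 48.0 ± 6.79 CPM in KO-O2 (log2 fold change 0.35 ± 0.16, q = 0.237).

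Rims1, the most abundant RIM per kilobase, was called in room air. It was at 233, 270, 314 and 261 CPM in WT-RA and at 231, 206 and 201 CPM in KO-RA, close to touching at the ends (log2 fold change -0.34 ± 0.09, edgeR q = 0.0271). In hyperoxia it was at 218 ± 16.4 CPM in WT-O2 and 210 ± 8.47 CPM in KO-O2, with overlap and a log2 fold change of -0.06 ± 0.09. The call in room air was lost without the WT-RA mouse GSD400 or without the KO-RA mouse GSD490 or GSD496, and with GSD408, the mouse with conflicting labels, counted as room air. The giant scaffolds Bsn and Pclo, which organise the active zone, had log2 fold changes of -0.20 ± 0.09 (q = 0.195) and -0.05 ± 0.11 in room air and of -0.02 ± 0.09 (Bsn) and 0.0017 ± 0.107 (Pclo) in hyperoxia.

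Among WT mice, Rims3 followed the thalamic marker genes. The thalamic score was the mean standardized log2 CPM of the thalamic marker list. That list holds none of the 38 genes, but it includes Cplx3 and Slc17a6, which are also in the lists of the wider release pathway. The score was compared with 14 release genes in the 8 WT mice of both exposures, as was a striatal score, 28 relations in all. Rims3 had a Pearson r of 0.946 with the thalamic score (exact permutation p = 0.000347, 0.00972 after Benjamini-Hochberg adjustment) and a Spearman rho of 0.833 (exact permutation p = 0.0154, adjusted 0.143). Without the 2 mice farthest from the median score, GSD398 and GSD400, r was 0.863. This was the only one of the 28 with an adjusted Pearson p under 0.05. Syt9, Vamp1 and Unc13c had r of 0.858, 0.86 and 0.805 (adjusted exact permutation p of 0.0689, 0.0689 and 0.0949), falling to 0.611, 0.455 and 0.546 without those 2 mice. Stx1a ran the other way, with r of -0.824 (adjusted exact permutation p = 0.0689) and -0.36 without those 2 mice, as did Cplx2 with r of -0.681 (adjusted exact permutation p = 0.209) and 0.0628 without them. For Syt6 r was -0.614 (adjusted exact permutation p = 0.246) and -0.309 without them. With the striatal score, r was 0.583 for Syt9, 0.684 for Vamp1, 0.655 for Unc13c, 0.631 for Rims3 and 0.736 for Syt2. It was -0.343 for Stx1a and -0.695 for Cplx2, and adjusted exact permutation p lay between 0.169 (Syt2) and 0.626 (Stx1a). The mice farthest from the median striatal score were GSD404 and GSD408. Without them r was 0.735, 0.822, 0.728, 0.762, 0.795, -0.717 and -0.966 in the same order. Sv2c had r of -0.295 with the thalamic and 0.158 with the striatal score (exact permutation p = 0.489 and 0.681). The WT-RA mouse GSD400, whose thalamic markers summed to 183 CPM, within the KO range of 180 to 224 CPM, had 41.5 CPM of Sv2c, 24.1 of Syt2, 49.2 of Syt6, 44.1 of Rims3 and 54.8 of Unc13c, all above every KO mouse, and its Syt9 and Vamp1 lay in or below the KO range. Its striatal markers, at 643 CPM, were above all KO mice. With both scores as covariates, none of the 38 genes was called between genotypes in either exposure by edgeR, with 7 at p below 0.05 in room air and 5 in hyperoxia, and 3 and 1 of all genes were called. The log2 fold changes in that fit were -1.56 and -0.92 for Syt6 and -0.86 and -0.81 for Sv2c in room air and hyperoxia, -1.01 for Stx1a and -0.60 for Rims1 in room air, and -0.82 for Syt10 in hyperoxia. In room air they were -0.13 for Syt2, -0.304 for Rims2, -0.06 for Rims3 and -0.15 for Unc13c, and those of Syt9, Vamp1 and Cplx2 turned in sign. In hyperoxia they were -0.146 for Rims2, -0.145 for Rims3 and -0.457 for Unc13c, and those of Syt2, Syt9 and Cplx2 turned in sign. No KO mouse had a striatal score as high as a WT mouse, so genotype and score can hardly be told apart in that fit.

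**Figure D4:**
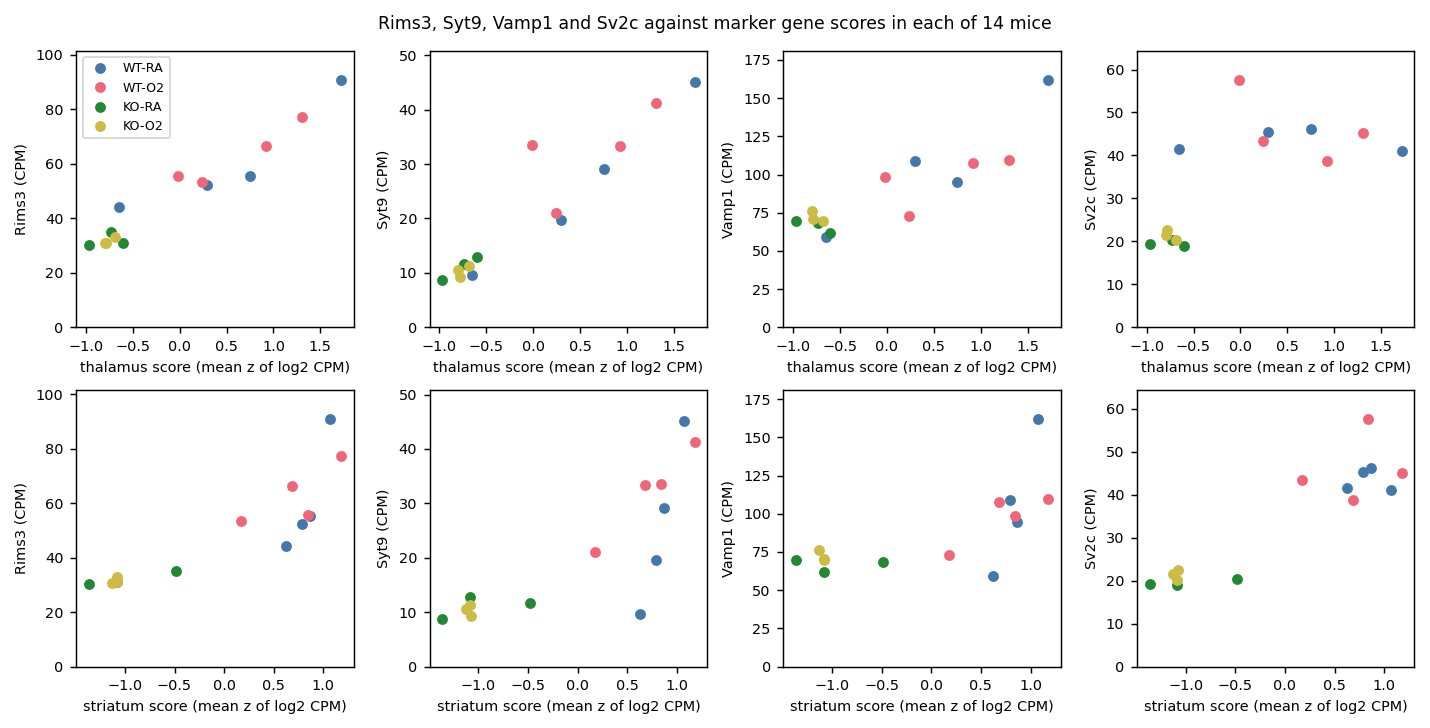
CPM of Rims3, Syt9, Vamp1 and Sv2c in each of the 14 mice against the thalamic score (top) and the striatal score (bottom), each the mean standardized log2 CPM of marker genes. Rims3 rises along the thalamic score among WT mice (r = 0.946, n = 8), Sv2c does not (r = -0.295), and the KO mice lie at the low end of both scores, joined on the thalamic score by WT-RA mouse GSD400.

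Hyperoxia in WT mice was followed by 1 call among the 38 genes. Syt17 lay at 60.2 to 72.6 CPM in WT-O2, above the WT-RA range of 42.4 to 56.9 CPM, with a log2 fold change of 0.40 ± 0.09 (edgeR q = 0.0894). This is 2.63% of the release genes against 0.643% of all genes tested. The call was lost in 12 of the 14 fits that left out 1 mouse, and with GSD408 counted as room air. Without the WT-RA mouse GSD398 it gave way to 4 lower calls (Syt6, Stx1a, Rab3b and Rims1). With DESeq2 Syt6 was called as well. At an unadjusted p below 0.05, 12 of the 38 passed (31.6% against 12.2% of all genes), of which Syt1, Syt2, Syt6, Syt12, Snap25, Stx1a, Rims1 and Rims2 were lower and Syt17, Doc2b, Syn2 and Syn3 were higher, none of them past the q threshold other than Syt17. Some marker lists had lower values in WT-O2 as well: 7 of 12 cortical and subplate markers (median log2 fold change -0.45, 2 called lower) and 4 of 5 erythroid markers (-0.60) had p below 0.05, and 9 of 10 oligodendrocyte markers were below 0 (-0.50, 2 with p below 0.05). Of the hippocampal markers 10 of 12 were above 0 (0.22, 3 with p below 0.05), and of the interneuron markers 8 of 12 (0.13, 3 with p below 0.05). Their part in the release gene values was not tested.

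The values behind these p-values were modest in size. Rims2 was at 134 to 158 CPM in WT-RA and at 117 to 133 CPM in WT-O2, with a log2 fold change of -0.24 ± 0.07 (edgeR q = 0.14), and Rims1 had a log2 fold change of -0.30 ± 0.08 (q = 0.144). Syt6 had one of -0.66 ± 0.21 with overlapping groups (q = 0.22). Doc2b was at 101 to 114 CPM in WT-O2, all above the WT-RA range of 71.8 to 95.0 CPM, and its log2 fold change was 0.32 ± 0.08 (q = 0.12). The groups did not overlap for 6 of the 38 genes, 15.8% against 5.99% of all genes. Higher in WT-O2 were Syt17, Doc2b and Rab3c, and lower were Syt1, Syt12 and Rims2. This comparison uses the same WT-RA mice as the one between genotypes in room air, so that a WT-RA value that is low or high enters both. For Syt17 the means were 50.1 ± 6.56 CPM in WT-RA and 66.0 ± 5.10, 69.7 ± 7.70 and 65.4 ± 3.50 CPM in WT-O2, KO-RA and KO-O2. For Rims1 they were 270 ± 33.8 CPM in WT-RA and 218 ± 16.4, 213 ± 16.0 and 210 ± 8.47 CPM.

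**Figure D5:**
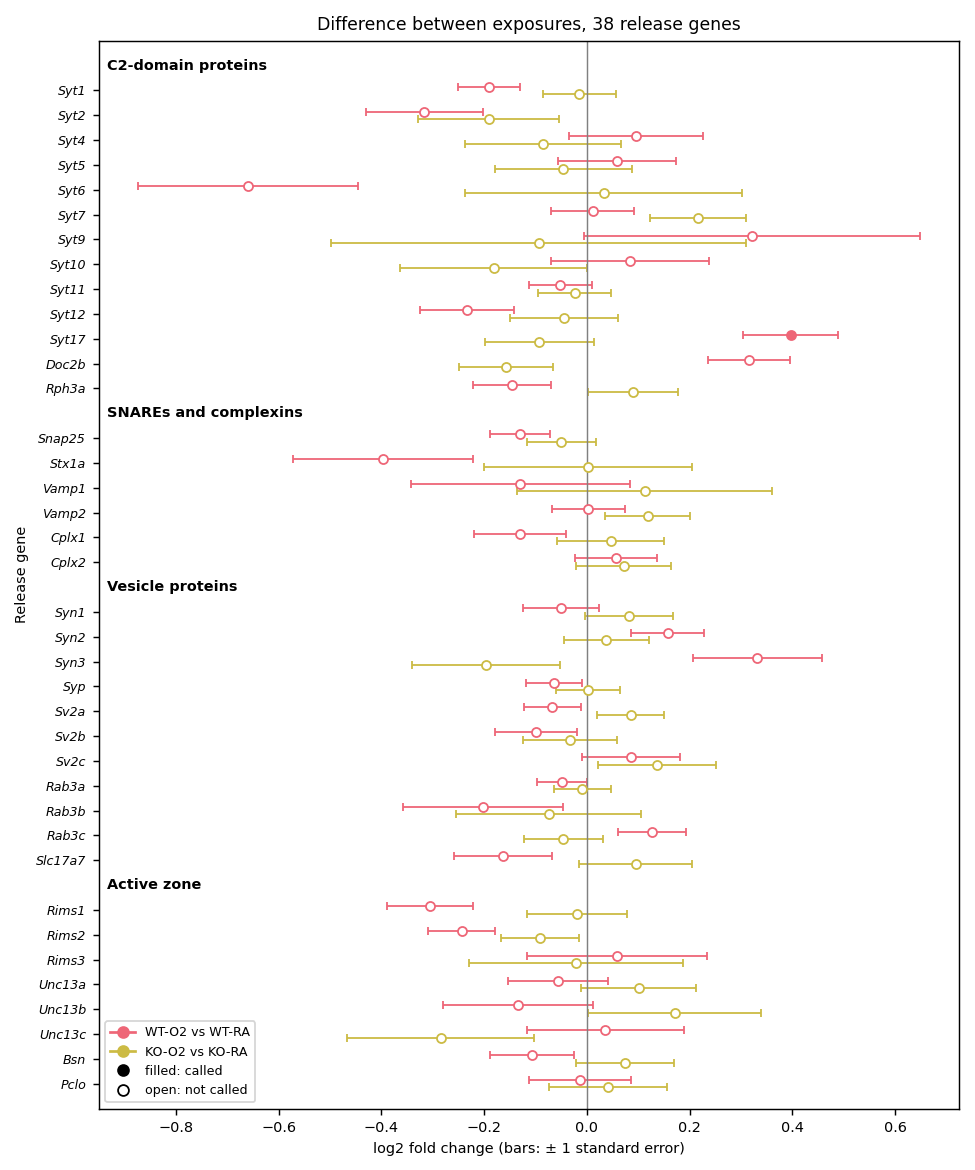
Log2 fold change of each release gene between exposures, WT-O2 over WT-RA and KO-O2 over KO-RA, with bars of 1 standard error and filled points for called genes. Syt17 in WT mice (0.40) is the one filled point, and the KO values lie between -0.28 and 0.22.

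In KO mice, none of the 38 genes was called between KO-O2 and KO-RA by edgeR or by DESeq2 (background 0.012% of all genes by edgeR). The log2 fold changes lay between -0.28 (Unc13c) and 0.22 (Syt7). At an unadjusted p below 0.05 there was 1 gene, Syt7, 2.63% against 4.86% of all genes. Syt7 averaged 377 ± 20.1 CPM in KO-RA and 438 ± 20.5 CPM in KO-O2 without overlap. The groups did not overlap for 7 of the 38 genes (Syt7 and Rph3a higher, and Syt2, Syt5, Syt10, Doc2b and Unc13c lower in KO-O2), 18.4% against 11.8% of all genes. Sv2c, the gene with the smallest q between genotypes, overlapped between exposures at 20.2 to 22.6 CPM in KO-O2 and 18.9 to 20.4 CPM in KO-RA.

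The difference between the WT and KO responses was tested by the interaction of genotype and exposure. None of the 38 was called by edgeR or DESeq2, as none of the 16637 genes was by edgeR (0%). At an unadjusted p below 0.05 there were 4 by edgeR (10.5% against 4.05% of all genes) and 7 by DESeq2. These 4 were Syt17 (-0.49 ± 0.14), Doc2b (-0.47 ± 0.12), Syn3 (-0.53 ± 0.19) and Rims1 (0.29 ± 0.13), each on the log2 scale, where a negative value means a lower response in KO mice. All had an adjusted p of 1 in edgeR. In WT mice the log2 fold changes of Syt17 and Doc2b were 0.40 ± 0.09 and 0.32 ± 0.08, and in KO mice their log2 fold changes were -0.09 ± 0.11 and -0.16 ± 0.09. In libraries simulated at these group sizes, 37 of 100 genes with a 1.5-fold interaction and 66 of 100 with a 2-fold one were called. The changed genes were picked at random from all genes past the filter, so recovery of the release genes themselves was not measured.

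The rest of the release pathway was followed through 5 lists of genes outside the 38. Of 23 tested genes for other SNAREs and their accessory and NSF factors, 3 were called in room air (2 higher and 1 lower in KO) and 2 in hyperoxia, 13.0% and 8.7% against 10.4% and 6.86% of all genes. They included Cplx3, a complexin of retina and subplate neurons, which had log2 fold changes of -3.15 ± 0.37 in room air and -1.88 ± 0.37 in hyperoxia (edgeR q = 0.000197 and 0.007) and was the only one called between WT-O2 and WT-RA (-1.40 ± 0.30, q = 0.0679). The tomosyn Stxbp5l was higher in both exposures (0.39 ± 0.11 and 0.35 ± 0.11, q = 0.039 and 0.0811), and Stxbp6 was higher in room air (0.34 ± 0.11, q = 0.0553). Of 12 other synaptotagmins and C2 proteins, 2 were called in room air (16.7%) and 1 in hyperoxia (8.33%). Sytl2 was lower in both (-0.92 ± 0.15 and -0.47 ± 0.15, q = 0.00193 and 0.0914) and Esyt1 in room air (-0.56 ± 0.19, q = 0.0788).

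Of 21 other vesicle membrane genes, 5 were called in room air (3 lower) and 3 in hyperoxia (all lower), 23.8% and 14.3% against the same 10.4% and 6.86% of all genes (6 in hyperoxia with DESeq2, 3 of them higher), and the transmitter transporters had the largest changes. Slc32a1, which loads GABA, had log2 fold changes of -0.58 ± 0.12 in room air and -0.65 ± 0.12 in hyperoxia (edgeR q = 0.00861 and 0.00625), and the acetylcholine transporter Slc18a3, at 0.53 to 3.08 CPM in WT mice and 0.072 to 0.391 CPM in KO mice, of -2.69 ± 0.62 and -3.35 ± 0.64 (q = 0.0126 and 0.00638). Slc17a6, the glutamate transporter of subcortical neurons, was lower in hyperoxia (-1.65 ± 0.43, q = 0.0362), while Slc17a7 did not pass in either exposure. Rab3d was higher in room air (0.46 ± 0.12, q = 0.0279). Of 20 other active zone genes, 3 were called in room air (15.0%). Ppfia2, a liprin scaffold, and Lin7c were higher (0.47 ± 0.07 and 0.43 ± 0.10, q = 0.000581 and 0.0158) and Rims4 was lower (-0.45 ± 0.14, q = 0.05) in room air. In hyperoxia none of these 20 was called by edgeR, 5 had an unadjusted p below 0.05, and DESeq2 called 1. Of 20 genes for vesicle endocytosis, 2 were called in each exposure (10%). Dnm3, a dynamin, and Sh3gl3, an endophilin, were lower in room air (-0.46 ± 0.09 and -0.66 ± 0.15, q = 0.00505 and 0.00998) and in hyperoxia (-0.49 ± 0.09 and -0.55 ± 0.15, q = 0.00501 and 0.0391). The median log2 fold change of each of the 5 lists lay between -0.12 and 0.03 in room air and between -0.23 and 0.07 in hyperoxia.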

How the data were processed

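Hippocampal RNA of 14 mice was sequenced as 150 bp paired-end reads after polyA selection. Per the study's methods, the estimated counts that the authors deposited were made with Kallisto against GRCm39 (Ensembl annotation) and summarised by gene with tximport. Tool versions, count scaling and trimming are not given in the sources used here. Groups were taken from the sample titles.

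Estimated counts were rounded, filtered with filterByExpr (16637 of 36118 genes kept), scaled by TMM and modelled over all 14 libraries with a mean for each group (edgeR 4.0.16, R 4.3.3). Comparisons were tested with the quasi-likelihood F-test, two-sided, and p-values were adjusted by Benjamini-Hochberg over the genes tested. A ± value after a fold change is its standard error. Log2 CPM used a prior count of 2. Symbols were assigned from a gene name table, which gave 35825 of the genes a symbol. Transcript lengths were those of the longest coding transcript in GENCODE M21 (GRCm38), and promoters are RefSeq entries of GRCm38.p6. No coordinates were converted. Multimapping between paralogs was handled by the estimation and cannot be checked in the table.

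The 38 genes, the pathway lists and the marker lists were chosen with earlier results of these data known. Values per mouse are given for genes called in any comparison, and pathway genes are named when among the 3 largest calls of their list in a comparison. Beside genes without a symbol match or below the filter, 1 gene of the SNARE pathway list is not reported here. Each mouse is a separate animal. Totals of 27272270 to 28257496 counts gave the release genes 147 to 51780 counts per library. In data simulated with these group sizes, calls recovered 59 of 100 genes given a 1.5-fold difference and 82 of 100 given a 2-fold one between KO-RA and WT-RA, 57 and 81 between KO-O2 and WT-O2, 62 and 82 between WT-O2 and WT-RA, and 52 and 75 between KO-O2 and KO-RA, over 16463 to 16478 genes. The changed genes were picked at random from all genes past the filter, and 6 to 16 unchanged genes were called in each of these comparisons.

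The alternatives were DESeq2 1.42.0, scaling by DESeq2's size factors or by library totals, no filter or at least 10 counts in every library, the compared groups alone, q below 0.05, a minimum fold of 1.5 or none, the thalamic and striatal scores as covariates, GSD408 counted as room air, and each mouse left out in turn.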

Additional observations from a re-analysis of the deposited data

Results flagged for a closer look

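In 76 group-by-gene sets of 4 WT mice, 3 had 1 mouse far from the other 3, where chance gives about 1 set in 20. Syt11 was at 857.5 CPM in the WT-RA mouse GSD398, and the next mouse was at 768 CPM. Rab3c was at 395.6 CPM in the WT-RA mouse GSD400, and the next at 469.1 CPM. Unc13c was at 103.7 CPM in the WT-O2 mouse GSD408, the mouse with conflicting labels, and the next at 75.88 CPM. Doc2b values lay in opposite directions under hyperoxia, with neither comparison called (edgeR q = 0.12 in WT and 0.997 in KO): every WT-O2 mouse was above every WT-RA mouse, and every KO-O2 mouse was below every KO-RA mouse. The interaction of genotype and exposure for Doc2b was -0.474 on the log2 scale and was not called in edgeR (adjusted p = 1).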

How the results depend on the processing

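The 13 calls in room air and the 9 in hyperoxia between genotypes were the same genes with DESeq2, with DESeq2's size factors, without the filter and with at least 10 counts in every library. Counts in room air ranged from 9 to 16 and those in hyperoxia from 7 to 10 over all alternatives other than the marker scores, and from 9 to 13 and 7 to 10 when 1 mouse was left out. With the thalamic and striatal scores as covariates, 0 and 0 were called, and values turned for Syt9 (0.653), Vamp1 (0.253) and Cplx2 (-0.04) in room air and for Syt2 (0.009), Syt9 (0.131) and Cplx2 (-0.034) in hyperoxia, whereas Syt6 (-1.555 and -0.92), Sv2c (-0.862 and -0.813), Stx1a (-1.01), Rims1 (-0.597) and Syt10 (-0.819) kept their direction at more than 0.5 in size. Rims2 (-0.304 and -0.146), Rims3 (-0.059 and -0.145), Unc13c (-0.154 and -0.457) and, in room air, Syt2 (-0.127) kept their direction at a smaller size than in the main fit. In that fit 3 and 1 of all genes were called. No KO mouse had a striatal score as high as a WT mouse, so the fit can hardly separate genotype from score. It cannot sort the genes into those tied to the scores and those not. The cause was not tested. Between WT-O2 and WT-RA, the 1 call became 2 with DESeq2 and with the covariates, 0 with the compared groups alone, with q below 0.05, with a fold of 1.5 and with GSD408 as room air, and 0 to 4 when 1 mouse was left out (4 without GSD398). None was called in the other 2 comparisons under any alternative run. The interaction cannot be fitted on 2 groups alone. Over the 23 called single-gene differences and 575 values, 497 kept their call, 72 kept their direction without the call and 6 turned. No paired analysis was possible because the labels give animal numbers and no replicate number shared between groups.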
